A study of Mus musculus with 3 samples.

Results

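The p53 target genes are genes that the transcription factor p53, the product of Trp53, can switch on. A list of 33 such genes was examined in LT-HSCs (long-term hematopoietic stem cells), the bone marrow cells that renew themselves and sustain blood formation. Members were found by the gene name printed for each probe on the array. They held 67 of 56605 probes and 33 of 37074 gene names, and 19 members had more than 1 probe. Each gene was read at its brightest probe, the one with the highest mean signal over the 3 arrays, and its other probes served as a check.

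The study asked how the kinase p38α acts in stem cells that have lost Atm, the kinase that signals DNA breaks and that phosphorylates p53. LT-HSCs of C57BL/6J mice aged 11 weeks per the labels were collected as CD150+CD48-Flt3-CD34- LSK cells, LSK being the lineage-negative, Sca-1-positive and c-Kit-positive fraction, and the methods add CD41- to this gate. The AtmsKO group came from CAG-CreERT2 mice with floxed Atm, and the Atmp38dKO group from CAG-CreERT2 mice with floxed Atm and floxed p38α (Mapk14). The CAG promoter is active in nearly all tissues, so the design does not limit deletion to blood cells. The series text places tamoxifen (TAM) at about 5 weeks of age and the analysis 4 weeks later, which differs from the age in the labels. WT controls received TAM too and, per the methods, carried floxed alleles but no Cre. Mice of both sexes were used, and the number of mice behind each array is not given in the sources used here. Cy3-labelled RNA of each genotype was hybridized to 1 array. With 1 array per group no spread between mice could be measured and no test was made, and every difference below is a difference between arrays, not between conditions.

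p53 is kept scarce in unstressed cells by its ubiquitin ligases and accumulates when kinases such as Atm and Atr report DNA damage. It then binds paired half-sites in DNA and raises genes for cell cycle arrest, apoptosis, DNA repair, antioxidant defence and its own shutdown. In hematopoietic stem cells p53 is known for its part in quiescence and in the response to radiation.

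Signals are Agilent processed signals, in intensity units after background subtraction within the array. Differences are differences in normalized log2 signal, which is log2 of the signal minus that of the array's 75th percentile (101.5 units for WT, 96.2 for AtmsKO and 117.8 for Atmp38dKO). A difference of 1 is 2-fold. Because the arrays were scaled in this way, a raw signal can be higher on one array while the normalized difference is lower. A probe was well above background where the scanner software marked more than 50% of its spots so, as for 73.3%, 68.9% and 77.7% of probes. Signals of different probes do not rank the transcripts they read. All 3 arrays lay on 1 slide and in 1 scan.

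The deleted genes were read first. In the order WT, AtmsKO, Atmp38dKO, which is kept throughout, Atm had signals of 87.0, 23.9 and 86.5 units at its brighter probe and of 88.8, 16.3 and 49.0 at the other. Mapk14 had signals of 469, 558 and 616 at its brighter probe and of 295, 260 and 345 at the other. Little Atm was thus read on the AtmsKO array, with differences from WT of -1.79 and -2.37. The Atmp38dKO array did not read Mapk14 lower than WT (0.18 and 0.01). Its Atm reading was split, with a difference of -0.22 for the brighter Atm probe and of -1.07 for the dimmer. Neither deletion was thus clear on that array, which is therefore called the Atmp38dKO-labelled array below. The exons that the floxed alleles lose are not given here, so whether these probes can show a deletion was not tested. All 10 LT-HSC marker genes checked were well above background on every array, and so was Cd34, a surface marker the gate selects against (1694, 1666 and 2186 units). Fgd5 (198, 147 and 69.8) and Hoxb5 (91.4, 107 and 34) were the LT-HSC markers lowest on the Atmp38dKO-labelled array relative to WT. All 9 granulocyte markers were well above background on every array, with a summed signal of 3149, 3506 and 4257 units. The summed signal of 6 megakaryocyte markers was 1761, 3133 and 2439, led by Pf4 (1020, 2366 and 1536), and all 6 were well above background throughout. Erythroid markers had sums of 380, 309 and 515, with 6, 7 and 7 of 7 well above background, and T cell markers had 678, 660 and 920, with 5 of 6 so on each array. B cell markers had sums of 456, 376 and 481, with 6, 5 and 7 of 7 well above background. Macrophage markers, mostly Csf1r, had 2989, 2448 and 2849, with 4, 4 and 3 of 5 so. Endothelial and stromal markers had 406, 296 and 339, with 5 of 6 so each time. All these sums are of raw signals, so their order can differ from that of normalized values. Normalized differences from WT at the brightest genes were -0.13 and -0.03 for Pax5 (B cell), -0.22 and -0.24 for Csf1r, and -0.53 and -0.56 for Emcn (endothelial). Csf1r and Emcn were thus near level between the mutant arrays (-0.02 and -0.03). Mast cell and basophil markers were near background (35.3, 31.4 and 41.8, with 1, 1 and 3 of 4). The endothelial gene Cdh5 and the basophil gene Ms4a2 were not well above background on any array. The part of these cells in the differences below was not tested, and in sorted bulk RNA fewer cells of a type cannot be told apart from less RNA per cell.

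Most p53 target genes were readily detected, and few of them differed past 2-fold between the arrays. On the WT array all 33 were well above background. The AtmsKO array had 30 of them so and the Atmp38dKO-labelled array 32, and 30 were so on all arrays. The median member signal was 145, 117 and 145 units, and 21, 19 and 19 members lay above the 75th percentile of their array. The 5 brightest member probes on the WT array read Aen, Bax, Bbc3, Ddb2 and Sesn1. At the brightest probe 27 members were measured to differ by less than 2-fold in every comparison, and 5 were past it in at least 1 (Btg2, Dram1, Eda2r, Gdf15 and Zmat3). Phlda3 could not be placed, since its AtmsKO value was not well above background and its difference from WT is a bound of at least 1.37-fold.

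**Figure D1:**
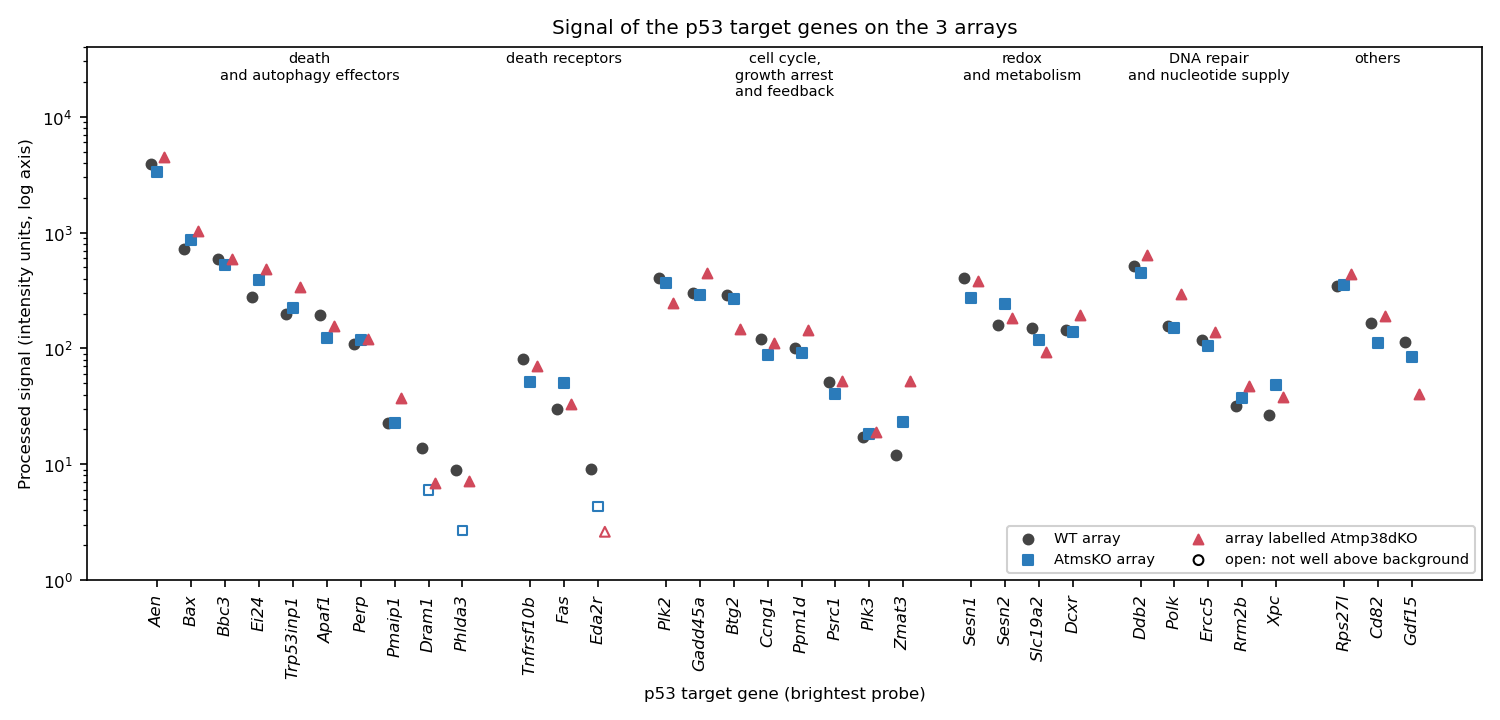
Processed signal (intensity units, log axis) of the brightest probe of each of the 33 p53 target genes on the WT array (circles), the AtmsKO array (squares) and the Atmp38dKO-labelled array (triangles), grouped by role and with open symbols where a probe was not well above background. The 3 symbols of most genes lie close together, and the open symbols belong to Dram1, Phlda3 and Eda2r.

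Between the AtmsKO and WT arrays 1 of 33 members was at least 2-fold higher (Zmat3), which is 3.03% beside 3.94% of all gene names considered. Likewise 1 was at least 2-fold lower (Dram1), beside 4.09% of all gene names. Between the Atmp38dKO-labelled array and WT 1 was higher (Zmat3), beside 4.02%, and 4 were lower (Btg2, Dram1, Eda2r and Gdf15), which is 12.1% beside 4.49%. Between the Atmp38dKO-labelled array and the AtmsKO array, 0 of 32 members were higher, beside 3.75%, and 2 were lower (Btg2 and Gdf15), which is 6.25% beside 3.72%. A gene name was considered if either array of the comparison had it well above background, and counted if the brighter one did. The shares of members were close to those of all gene names, except among genes lower on the Atmp38dKO-labelled array, where they rest on 4 and 2 genes. With normexp background correction, which shrinks dim signals toward each other, 0 members were past 2-fold in any comparison. The comparisons share arrays with each other, so their counts are not separate pieces of evidence.

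The members had a median difference of -0.07 between AtmsKO and WT, of -0.01 between the Atmp38dKO-labelled array and WT, and of 0.05 between the mutant arrays, beside 0.01, 0.02 and -0.005 over all gene names. In the same order 14, 15 and 19 members were higher and 19, 18 and 13 were lower, so that 42.4%, 45.5% and 59.4% were higher, beside 51.0%, 52.2% and 49.5% of all gene names. Within 0.5 of 0 on the log2 scale lay 24, 20 and 23 members, which is 72.7%, 60.6% and 71.9%, beside 75.2%, 73.2% and 76.4% of all gene names. The share within 0.5 was thus below that of all gene names, by the most between the Atmp38dKO-labelled array and WT. The means were -0.02, -0.10 and -0.07, the last of them opposite in sign to its median. Thus the list as a whole did not shift in 1 direction in any comparison, and its members went both ways.

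At a threshold of 1.5-fold, 4 members were higher on the AtmsKO array than on WT (Fas, Sesn2, Xpc and Zmat3), which is 12.1% beside 10.1% of all gene names, and 1 was lower (Dram1), which is 3.03% beside 10.2%. The Atmp38dKO-labelled array had 3 members higher than WT (Ei24, Polk and Zmat3), which is 9.09% beside 11.0%, and 6 lower (the 4 past 2-fold with Plk2 and Slc19a2), which is 18.2% beside 10.6%. Compared with AtmsKO it had 2 members higher (Polk and Zmat3), which is 6.25% beside 10.1%, and 7 lower (Btg2, Fas, Gdf15, Plk2, Sesn2, Slc19a2 and Xpc), which is 21.9% beside 8.81%.

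Of the members, 21 had a mean signal of at least 100 units, where spots of the same probe agree best. Among them 0 were past 2-fold in either direction between AtmsKO and WT, beside 0.818% higher and 0.809% lower among all gene names of that brightness. Btg2 was the sole bright member past 2-fold on the Atmp38dKO-labelled array. It was lower than on WT, beside 1.16% of bright gene names lower and 1.08% higher, and lower than on AtmsKO, beside 0.827% lower and 0.969% higher. At 1.5-fold 3 bright members were lower on the Atmp38dKO-labelled array than on WT (Btg2, Plk2 and Slc19a2), which is 14.3% beside 4.37%, and 2 were higher (Ei24 and Polk), which is 9.52% beside 4.35%. Relative to AtmsKO 4 were lower at this threshold (Btg2, Plk2, Sesn2 and Slc19a2), which is 19.0% beside 4.13%, and 1 was higher (Polk), which is 4.76% beside 3.73%. In AtmsKO against WT Sesn2 alone was past 1.5-fold and was higher, beside 4.38% of bright gene names higher and 3.47% lower.

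**Figure D2:**
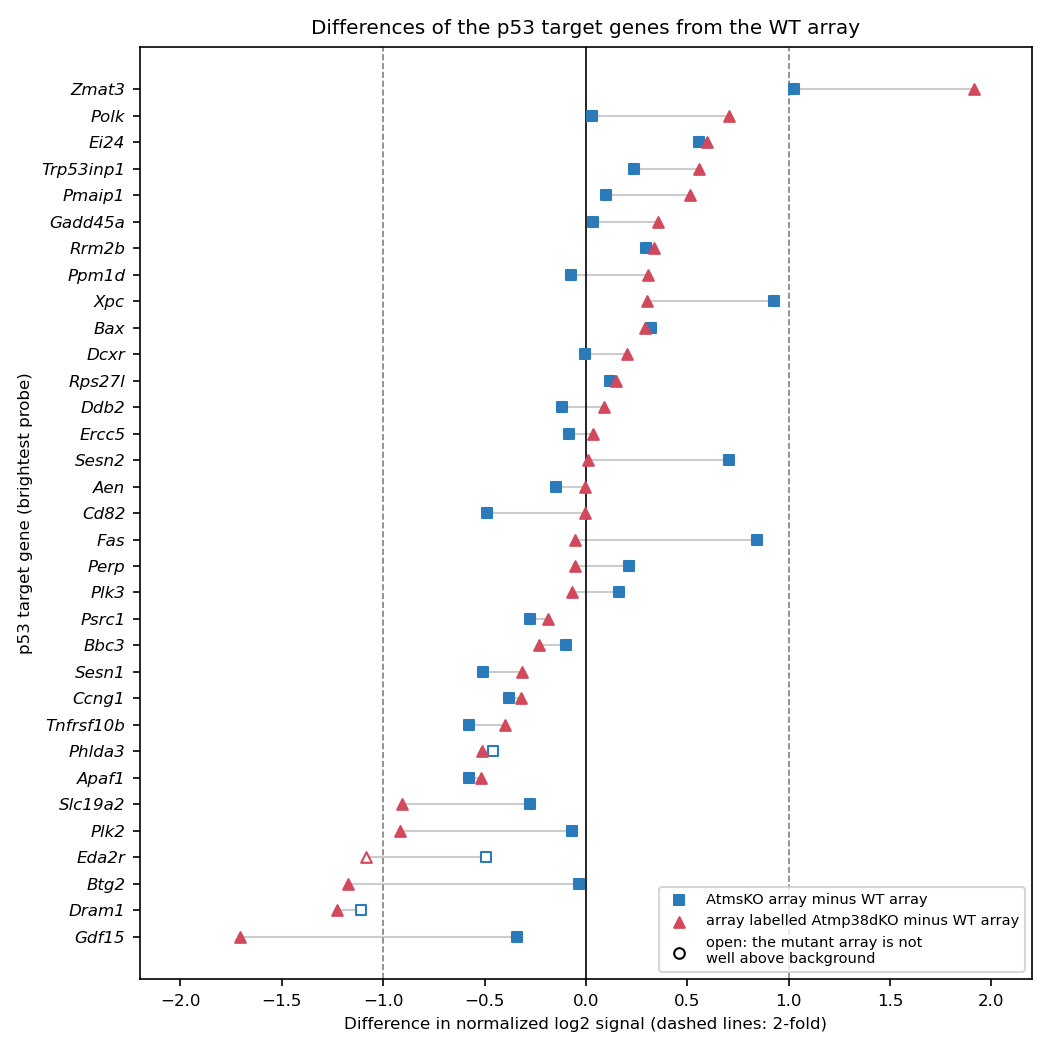
Difference in normalized log2 signal from the WT array for each p53 target gene at its brightest probe, for the AtmsKO array (squares) and the Atmp38dKO-labelled array (triangles), with dashed lines at 2-fold and open symbols where the mutant array was not well above background. Zmat3 is at the top (1.02 and 1.91) and Gdf15 at the bottom (-0.34 and -1.71), while Btg2 and Plk2 lie near 0 for AtmsKO and near -1 for the Atmp38dKO-labelled array.

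Spread between spots and between probes bounds these values. Probes printed several times on an array had a median SD between spots of 0.05 on the log2 scale at signals of 100 units or more, of 0.14 to 0.18 at 20 to 100 units and of 0.26 to 0.30 under 20 units. A wider spread was seen between probes of the same gene. Over 7703 gene names with a further probe well above background, the differences at the brightest and the next probe were a median of 0.36, 0.36 and 0.35 apart in the 3 comparisons, with a 95th percentile of 1.42 to 1.5. They had the same sign for 53.5%, 54.4% and 55.3% of these gene names. Of 16 members with such a further probe, 11, 9 and 12 had the same sign at both. Over all further member probes the sign was that of the brightest probe for 14 of 28, 15 of 28 and 16 of 27, so agreement in sign was near the level of an even split. A difference under about 0.35 at 1 probe is therefore within the median gap between probes of the same gene. A larger one is not thereby beyond the gaps seen, given their 95th percentile.

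The death and autophagy effectors had 10 members, with medians of 0.00, -0.03 and 0.00 in the 3 comparisons. Bax, which permeabilizes mitochondria, had signals of 724, 856 and 1027 units, and Bbc3, which encodes the BH3-only protein PUMA, had 596, 528 and 590. Bax was higher on both mutant arrays than on WT (0.32 and 0.29), and its other probe, at 86.6, 112 and 136 units, differed by 0.45 and 0.44. Bbc3 was lower by 0.10 and 0.23 on the log2 scale, so the difference was small for both of these mitochondrial death genes. Pmaip1, which encodes the BH3-only protein NOXA, was dim (22.5, 22.9 and 37.2 units) and differed by 0.10 and 0.51.

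The Bax promoter is shown because Bax is a classic direct target and its promoter held a match to the p53 half-site, the 10-base unit of which p53 binds a pair. The sequence is RefSeq's for GRCm38.p6, minus strand, over the 250 bases before the start site (chr7:45466899-45467148), and capitals mark the match at -201 to -192 from the start. It was chosen for printing after its values were seen.
Bax: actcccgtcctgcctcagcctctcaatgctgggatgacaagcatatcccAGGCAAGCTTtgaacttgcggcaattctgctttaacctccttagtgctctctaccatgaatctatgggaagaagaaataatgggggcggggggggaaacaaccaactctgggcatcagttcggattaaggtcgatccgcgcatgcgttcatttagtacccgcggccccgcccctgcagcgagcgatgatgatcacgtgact

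Aen, which encodes a nuclease that acts in apoptosis, had signals of 3906, 3344 and 4516, the highest of any member probe, with differences from WT of -0.15 and -0.01. Its 4 other probes, placed 8424 to 11279 bases away on chromosome 7 (mm9), did not follow it. Those at 411, 715 and 892 units and at 350, 635 and 749 units were higher by 0.88 and 0.94 on the AtmsKO array, as they were by 0.90 and 0.88 on the Atmp38dKO-labelled array. A dimmer one, at 204, 265 and 354 units, differed by 0.45 and 0.58, and the dimmest, at 40.3, 109 and 24.7 units, by 1.51 and -0.92. The brightest Aen probe was thus flat while 3 of the other 4 were higher on both mutant arrays. No annotation of the mm9 build was used here, so which exons these probes read is not given.

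Apaf1, the scaffold of the apoptosome, also differed between probes. Its brightest probe was lower on both mutant arrays (194, 123 and 158 units, differences of -0.58 and -0.52), and a second, 77340 bases away, was higher (32.8, 42.9 and 64.2 units, 0.46 and 0.75). Ei24, a p53-induced gene with a part in autophagy, was higher on both (277, 387 and 486 units, 0.56 and 0.60), as were its other probes (0.04 and 0.30, and 1.13 and 0.96). Trp53inp1, whose product supports p53 activity and autophagy, was higher on the Atmp38dKO-labelled array at both of its probes (199, 222 and 339 units, a difference of 0.56 from WT, and 78.4, 97.6 and 203 units, 1.16). For Ei24 and Trp53inp1 all their probes therefore went the same way against WT. Perp, a membrane protein of cell junctions and apoptosis, had 108, 119 and 121 units and differed by 0.21 and -0.05.

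Dram1 and Phlda3 were at the edge of detection. Dram1, a lysosomal inducer of autophagy, had 13.9, 5.96 and 6.90 units, of which the AtmsKO value was not well above background. It was at least 2.16-fold lower on the AtmsKO array than on WT, where the bound is the floor of detection on that array, and 2.35-fold lower on the Atmp38dKO-labelled array. Phlda3, a repressor of Akt signaling, had 8.86, 2.68 (not well above background) and 7.22 units, so it was at least 1.37-fold lower on the AtmsKO array. These differences amount to a few intensity units, both genes were read by 1 probe, and under normexp Dram1 differed by -0.10 and -0.29.

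The death receptors gave no clear reading. Fas, the receptor for Fas ligand, had 29.8, 50.7 and 33.3 units at the brightest probe that carries its name (differences of 0.85 and -0.05). The files place that probe at chr4:40555124-40555183 (mm9), whereas the other Fas probes are on chromosome 19, where the gene lies. The brighter of those 2 had 24.0, 13.7 and 16.8 units, with differences of -0.73 and -0.73, and the dimmer was not well above background on any array. The sign for Fas on the AtmsKO array thus depended on the probe, and whether the chromosome 4 probe reads Fas was not tested. Tnfrsf10b, the mouse TRAIL receptor, had 80.5, 51.1 and 70.8 units (-0.58 and -0.40), and the signs varied at its 2 other probes (-0.55 and 0.45, and 0.71 and 0.15). Eda2r, a receptor for ectodysplasin A2, had 9.10, 4.32 and 2.61 units, and only the WT value was well above background. It was at least 1.41-fold lower on the AtmsKO array and at least 2.12-fold lower on the Atmp38dKO-labelled array, from a signal that is low on all arrays, and under normexp it differed by -0.05 and -0.27.

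The cell cycle, growth arrest and feedback genes held the clearest difference. Btg2, an antiproliferative cofactor that recruits messenger RNA deadenylases, had 288, 266 and 148 units at the probe at chr1:135972094-135972153 (mm9). Its other probe, 1734 bases away, had 124, 113 and 52.9 units. Btg2 was level between WT and AtmsKO (differences of -0.04 and -0.05 at the 2 probes) and low on the Atmp38dKO-labelled array (-1.17 and -1.44 against WT, -1.14 and -1.39 against AtmsKO). Among the 5 members past 2-fold it was the only one with a further probe well above background, and that probe was past 2-fold too. Dram1, Gdf15 and Zmat3 had 1 probe each, and the other Eda2r probes were not well above background on any array. Under normexp the Btg2 differences of the Atmp38dKO-labelled array were -0.92 from WT and -0.86 from AtmsKO. Plk2, a polo-like kinase of centriole duplication, showed the same order at its 1 probe (404, 365 and 248 units), with differences from WT of -0.07 and -0.92 and from AtmsKO of -0.85.

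Gadd45a, a growth arrest protein, went the other way at its brightest probe (300, 291 and 446 units, differences from WT of 0.03 and 0.36), although its dim second probe, which took the mean over both probes to -0.83 for the Atmp38dKO-labelled array against WT, was lower on both mutant arrays (17.4, 9.45 and 3.64 units, the last not well above background). Plk3, a stress-responsive polo-like kinase, was dim and level (17.3, 18.4 and 19.1 units). Ccng1, the cyclin G1 gene, had 120, 87.2 and 112 units and differences of -0.38 and -0.32. Psrc1, a microtubule-associated protein, had 51.6, 40.5 and 52.6 units and differences of -0.27 and -0.19. Ppm1d, the phosphatase that reverses Atm and p53 phosphorylation, had 101, 90.8 and 145 units and differences of -0.08 and 0.30. The medians of the 8 genes of this group were -0.05, -0.13 and 0.07, and 5 of 8 were lower in each comparison with WT.

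Zmat3, an RNA-binding zinc finger protein that acts downstream of p53, was the sole member past 2-fold in the upward direction. Its signals were 11.9, 23.0 and 52.2 units, so it was 2.03-fold higher on the AtmsKO array and 3.76-fold higher on the Atmp38dKO-labelled array than on WT (1.02 and 1.91), and 1.85-fold higher on the latter than on AtmsKO (0.89). It had 1 probe, and its WT signal lay in the range where spots of the same probe vary most. Under the normexp background correction the differences from WT were 0.28 and 0.46.

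Promoters of this group are shown for 3 genes. Btg2 and Plk2 are the members of this group that were lowest on the Atmp38dKO-labelled array, and each held the cyclic AMP response element (CRE), TGACGTCA, which is in capitals in their lines. Ccng1 is shown as a direct target with a match to the p53 half-site, in capitals in its line. The sequences are RefSeq's for GRCm38.p6, over the 250 bases before the start site, at chr1:134079156-134079405 (minus strand) for Btg2, chr13:110394794-110395043 (plus strand) for Plk2 and chr11:40755287-40755536 (minus strand) for Ccng1. These genes were chosen for printing after their values were seen, and a match is a description of the letters, not evidence of binding.
Btg2: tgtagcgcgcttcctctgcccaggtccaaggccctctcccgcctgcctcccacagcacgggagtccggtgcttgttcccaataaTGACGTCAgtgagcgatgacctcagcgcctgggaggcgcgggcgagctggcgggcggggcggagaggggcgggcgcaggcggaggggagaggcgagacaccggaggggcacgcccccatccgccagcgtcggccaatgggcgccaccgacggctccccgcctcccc
Plk2: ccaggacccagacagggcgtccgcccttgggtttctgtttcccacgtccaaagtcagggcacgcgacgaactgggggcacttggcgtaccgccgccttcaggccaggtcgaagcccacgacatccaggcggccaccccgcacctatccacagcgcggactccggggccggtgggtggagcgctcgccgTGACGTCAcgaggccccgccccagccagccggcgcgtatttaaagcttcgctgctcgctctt
Ccng1: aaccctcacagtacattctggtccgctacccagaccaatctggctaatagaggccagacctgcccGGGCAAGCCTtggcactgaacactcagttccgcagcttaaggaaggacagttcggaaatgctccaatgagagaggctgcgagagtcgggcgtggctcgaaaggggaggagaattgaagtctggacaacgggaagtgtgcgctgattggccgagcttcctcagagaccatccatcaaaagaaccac

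The motifs were searched on both strands of RefSeq promoters from 250 bases before to 50 after the start, and 25 of 33 members had an entry. The p53 half-site, searched by name with every base of the 10-base consensus matched, was in the promoters of 9 of 25 members (Aen, Bax, Ccng1, Ei24, Gadd45a, Polk, Ppm1d, Rps27l and Sesn1), beside 9.55% of 27025 genes. The CRE core, TGACGT, which was the motif planned, was in 4 (Btg2, Plk2, Plk3 and Ppm1d), beside 8.37% of genes. The full CRE, which contains the core and was added after the data were seen, was in 3 (Btg2, Plk2 and Ppm1d), beside 2.03%. The AP-1 motif TGANTCA was in 1 (Fas), beside 8.97%. The 9 members with a half-site had differences of -0.32 to 0.71 between the Atmp38dKO-labelled array and WT (median 0.29), and the 16 without one had -1.71 to 0.20 (median -0.37). For AtmsKO against WT the medians were 0.03 and -0.19. Among the 25 members with an entry, those with a half-site in this window thus had the higher medians, with ranges that overlap. This describes 25 genes and was not tested. The genes lower on the Atmp38dKO-labelled array past 2-fold (Btg2, Dram1, Eda2r and Gdf15) had no half-site match. The same held for most members with an entry (16 of 25), and Dram1 and Eda2r were near the floor of detection. Ppm1d, with a CRE, was higher on that array (0.30) while Btg2 and Plk2 were lower. Left out for want of an entry were Zmat3, at 1.91 between the Atmp38dKO-labelled array and WT, Trp53inp1 (0.56), Pmaip1 (0.51) and Rrm2b (0.34). Also left out were Xpc (0.30), Ddb2 (0.09), Perp (-0.05) and Tnfrsf10b (-0.40). The medians therefore depend on which members had an entry.

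The redox and metabolism genes had medians of -0.14, -0.15 and -0.22. Sesn1, which encodes sestrin 1, an inhibitor of mTORC1 signaling, had 405, 270 and 378 units and differences of -0.51 and -0.31 from WT. Sesn2, its paralog, had 158, 244 and 184 units and was higher on the AtmsKO array alone (0.70 from WT, and -0.70 for the Atmp38dKO-labelled array against AtmsKO). The 2 sestrins thus lay on opposite sides of WT on the AtmsKO array. Slc19a2, a thiamine transporter, had 150, 117 and 92.6 units, with differences of -0.28 and -0.91. Dcxr, a carbonyl reductase, was level at its brightest probe (145, 137 and 194 units, -0.01 and 0.20), but 1 of its 3 other probes, at 36.6, 29.3 and 122 units, was higher on the Atmp38dKO-labelled array by 1.52.

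All 5 DNA repair and nucleotide supply genes were higher on the Atmp38dKO-labelled array than on WT, by 0.03 to 0.71 (median 0.30), beside 52.2% of all gene names higher, and none reached 2-fold. For 4 of the 5 the difference was under the median gap of about 0.35 between probes of a gene. Polk was above this median but under the 95th percentile of 1.48. Polk, a translesion DNA polymerase, had 156, 151 and 296 units at its brightest probe, a difference of 0.71 from WT and of 0.68 from AtmsKO. A second Polk probe, at 56.8, 89.8 and 101 units, was higher on both mutant arrays (0.74 and 0.62), and the remaining one differed by -0.23 and -0.03. Ddb2, which recognizes ultraviolet lesions, had 517, 452 and 639 units (differences of -0.12 and 0.09), and its other probe was lower on both mutant arrays (184, 102 and 179 units, -0.77 and -0.25). Xpc, its partner in lesion recognition, had 26.8, 48.3 and 38.4 units (0.93 and 0.30, but 0.16 and -0.11 at its other probe). Rrm2b, the p53-inducible ribonucleotide reductase subunit, had 32.0, 37.2 and 47.0 units (0.29 and 0.34), and Ercc5, an excision repair nuclease, had 118, 105 and 140 units (-0.09 and 0.03). Averaging over the probes of a gene turned Ddb2 to -0.08 in the comparison of the Atmp38dKO-labelled array with WT, and under normexp Xpc was at 0.03 and Rrm2b at 0.01, so the shared direction of the 5 genes rests on the brightest probes and on small differences.

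Gdf15, a secreted stress cytokine of the TGF-β family, had the largest downward difference from WT among members well above background on both arrays. Eda2r, whose difference is a bound, cannot be ranked against it, and with no floor Eda2r was at -2.02. The signals of Gdf15 were 113, 84.6 and 40.1 units at its 1 probe (chr8:73153293-73153352, mm9). Gdf15 was thus 3.27-fold lower on the Atmp38dKO-labelled array than on WT (-1.71) and 2.58-fold lower than on AtmsKO (-1.37). AtmsKO was lower than WT by 0.34 on the log2 scale, and the 3 arrays thus stood in the same order as for Btg2, Plk2 and Slc19a2. Under normexp the differences of the Atmp38dKO-labelled array were -0.95 from WT and -0.74 from AtmsKO. Rps27l, a ribosomal protein paralog, was level (343, 354 and 441 units, 0.12 and 0.15). Cd82, a tetraspanin, had 166, 112 and 192 units (-0.49 and -0.01), but a dimmer probe, at 26.5, 73.5 and 90.4 units, was higher on both mutant arrays by 1.55 and 1.56.

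**Figure D3:**
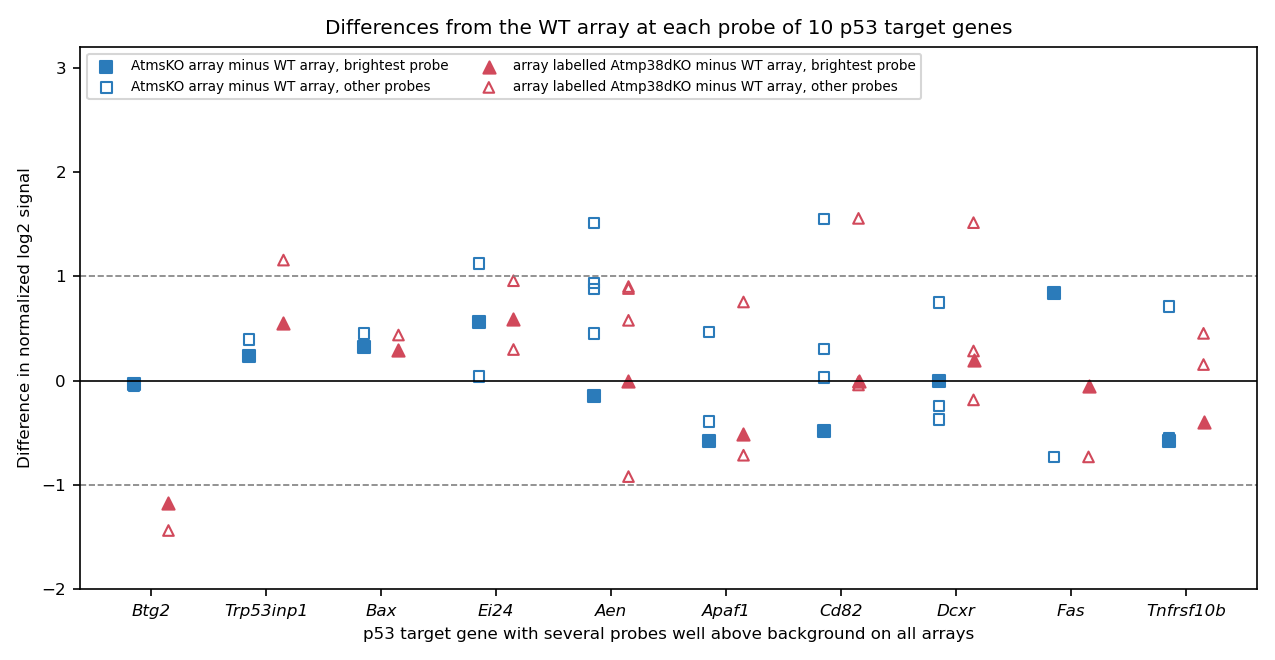
Difference in normalized log2 signal from the WT array at every probe well above background on all arrays, for 10 p53 target genes with several such probes, with filled symbols for the brightest probe and open ones for the others, squares for the AtmsKO array and triangles for the Atmp38dKO-labelled array. Both probes of Btg2 lie near 0 for AtmsKO and below -1 for the Atmp38dKO-labelled array, whereas the probes of Aen, Apaf1, Cd82, Dcxr and Tnfrsf10b fall on both sides of 0.

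Other genes of the pathway were set beside the members. Trp53 itself was level, at 1215, 1165 and 1246 units (differences from WT of 0.02 and -0.18). Among 22 p53 regulators and upstream kinases the medians were -0.02, 0.00 and -0.01, and on the AtmsKO array 2 were past 2-fold higher than on WT (9.09% beside 3.94% of all gene names) and 1 lower (4.55% beside 4.09%), of which 0 remained under normexp. The lower one was Atm (-1.79). The higher ones were Atr, a sister kinase of Atm (38.1, 90.4 and 117 units, 1.32 and 1.40 from WT, but 0.10 and 0.07 at its second probe), and Ppp1r13l, an inhibitor of p53 (3.99 units on WT and 2.42 on the Atmp38dKO-labelled array, both not well above background, and 24.9 on AtmsKO). Atr was the sole regulator past 2-fold between the Atmp38dKO-labelled array and WT. Between the mutant arrays Atm was higher (1.57) and Ppp1r13l lower past 2-fold.

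Among 22 further p53 targets that are not members, 0 were past 2-fold higher on the AtmsKO array than on WT and 5 were past it lower, which is 22.7% beside 4.09% of all gene names. Under normexp 0 were past 2-fold lower in this comparison or between the Atmp38dKO-labelled array and WT. At the main setting the 5 were Cdkn1a, the p21 cell cycle inhibitor (213, 94.7 and 135 units, -1.10), Gtse1, a mitotic protein that restrains p53 (69.4, 24.6 and 44.9, -1.42), and Thbs1, a matrix protein (77.6, 27.1 and 37.2, -1.44), and near background Tigar, a regulator of glycolysis (22.8, 6.20 and 9.09), and Ephx1, an epoxide hydrolase (14.6, 3.61 and 5.61). For Cdkn1a the second probe was level in this comparison (57.5, 48.0 and 38.8 units, -0.18), and the third was lower (22.6, 6.18 and 9.10 units, the AtmsKO value not well above background). Against WT 3 of them were also past 2-fold lower on the Atmp38dKO-labelled array (Tigar, Thbs1 and Ephx1), which is 13.6% beside 4.49%, where Cdkn1a differed by -0.88. The 2 that were higher there, 9.09% beside 4.02%, were Rprm, an inducer of cell cycle arrest (40.2, 43.3 and 139 units, 1.58), and the noncoding RNA Trp53cor1, a transcript from beside Cdkn1a named lincP21 in the files (19.7, 14.3 and 124 units, 2.45 against WT and 2.83 against AtmsKO), each read by 1 probe. They were also the 2 genes of this list past 2-fold higher than on AtmsKO, where 0 were lower, and 1 gene of the list was past 2-fold higher under normexp in each of these comparisons. The list's medians were -0.13, -0.05 and 0.10 and its means -0.31, -0.06 and 0.26. For AtmsKO against WT 14 of its genes were lower and 8 higher, and the genes past 2-fold were all lower, whereas between the Atmp38dKO-labelled array and WT they lay on both sides.

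Btg2, Plk2, Plk3 and Gadd45a are known from other work to be induced quickly by stress and growth signals as well as by p53. A list of 27 immediate early stress genes that holds none of the members was therefore read beside them. It was chosen with earlier results of these data known, so it is not an independent check. Its median difference was -0.21 between AtmsKO and WT, -0.91 between the Atmp38dKO-labelled array and WT, and -0.69 between the mutant arrays, and 21, 25 and 25 of 27 genes were lower. In the same order 2, 11 and 8 were at least 2-fold lower, and 0 were at least 2-fold higher. The lower ones are 7.41%, 40.7% and 29.6%, beside 4.09%, 4.49% and 3.72% of all gene names. The 2 for AtmsKO against WT were the heat shock genes Hspa1a (-1.237) and Hspa1b (-1.179). These were also the lowest of the list for the Atmp38dKO-labelled array against WT (-2.028 and -2.065). Under normexp 2, 10 and 5 were past 2-fold lower. Jun, a subunit of AP-1, had 3652, 2740 and 1318 units, and Egr1, an early growth response factor, had 25186, 20033 and 10604. Atf3, a stress-induced factor, had 440, 267 and 131 units. Jun (-1.69), Egr1 (-1.46) and Atf3 (-1.96) lay below the list's median for the Atmp38dKO-labelled array against WT. The 2 genes higher in that comparison were Egr2 (0.65) and Klf2 (0.17). Across normexp, centring on the median of detected probes and quantile normalization the list's median for the Atmp38dKO-labelled array against WT stayed between -0.93 and -0.74. Btg2 (-1.17) and Plk2 (-0.92) lay at the level of this list in that comparison, while Gadd45a (0.36) and Plk3 (-0.07) did not. The part of this list's shift in the values of Btg2, Plk2 and Gdf15 was not tested.

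**Figure D4:**
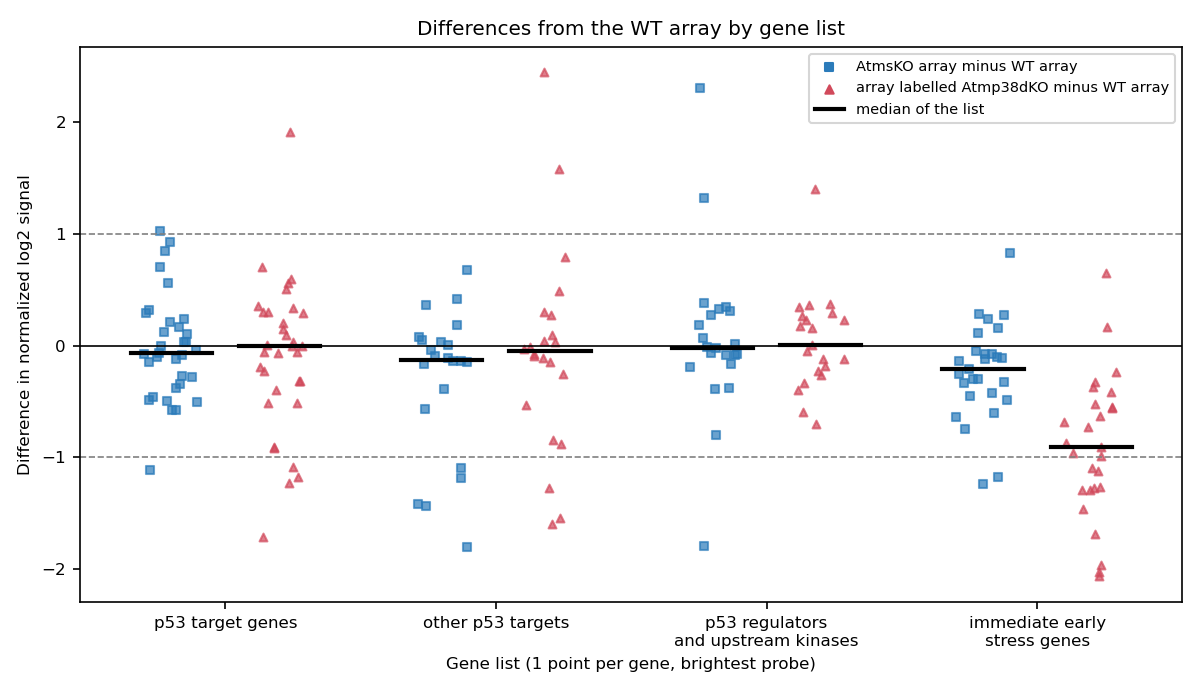
Difference in normalized log2 signal from the WT array, 1 point per gene at its brightest probe, for the p53 target genes, 22 other p53 targets, 22 p53 regulators and upstream kinases and 27 immediate early stress genes, with squares for the AtmsKO array, triangles for the Atmp38dKO-labelled array and bars for list medians. The medians of the first 3 lists lie between -0.13 and 0.00, and that of the immediate early genes is -0.21 for AtmsKO and -0.91 for the Atmp38dKO-labelled array.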

How the data were processed

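Gene expression was measured on Agilent 1-colour arrays in LT-HSCs of 3 groups, 1 array each, grouped by sample title. Per the file headers, the authors' contractor extracted signals with Agilent Feature Extraction 11.5.1.1, which gave the deposited processed intensity, background-subtracted and detrended within the array, raw and local background intensity, and flags for outlying, saturated and well above background spots. Coordinates are mm9. The deposited log2 table equaled log2 of the processed intensity minus the array's 75th percentile within 0.02 for 99.8%, 99.7% and 99.6% of probes, and its column medians were -2.18, -2.22 and -2.17.

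Control and outlier spots (57, 75 and 83) were removed, spots of a probe averaged, and the 75th percentile of the array subtracted on the log2 scale. No spot was saturated. Where a probe was not well above background, the lowest normalized signal that was so on the array took its place unless its own was higher, and such differences are bounds. Percentile scaling removes changes in total RNA. RefSeq (GRCm38.p6) held the accessions of 53 of 67 member probes, and 0 were named for another gene. Depth does not apply to arrays, and precision is limited by their number.

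Members and gene lists were chosen with earlier results of these data known. Signals are given for members past 2-fold, the 5 brightest on the WT array and those not well above background somewhere, and for further members by role. The full CRE motif, the list medians under other scalings and the shares among bright gene names were added after seeing the data. Counting was tested on simulated data. Python 3.11.15, numpy 2.4.6, pandas 2.3.3, matplotlib 3.10.9, R 4.3.3 and limma 3.58.1 were used.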

Additional observations from a re-analysis of the deposited data

How the results depend on the processing

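The alternatives were normexp background correction with an offset of 50, centring on the median of detected probes, quantile normalization, no floor or filter, detection on both arrays, the authors' log2 values, the mean over a gene's probes, the mean over members and a 1.5-fold threshold. No paired analysis was possible because there is 1 array per group and no test, and no array could be left out.

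Of 680 member differences under the alternatives 570 moved by less than 0.075 on the log2 scale, 110 moved further and 24 had the opposite sign to the reported one, none of them for a difference past 2-fold. Of the 24, 13 came under the mean over a gene's probes. They included, against WT on the Atmp38dKO-labelled array, Gadd45a (0.36 to -0.83), Tnfrsf10b (-0.40 to 0.07), Ppm1d (0.30 to -0.11) and Ddb2 (0.09 to -0.08), and on the AtmsKO array Aen (-0.15 to 0.73) and Cd82 (-0.49 to 0.35). The other 11 started within 0.086 of 0, and among them Phlda3 went from -0.05 to 1.14 between the mutant arrays with no floor and with the authors' values. For the 9 differences past 2-fold all 61 alternative values kept the direction and 52 were still past 2-fold. Those no longer past it were the values under normexp, which every 1 of the 9 differences failed. Several alternatives repeat the main value or nearly so by construction. These are detection on both arrays, the authors' values and, for genes with 1 probe, the mean over probes. The tallies of unchanged values are therefore not a measure of robustness. Normexp, which shrinks dim signals, left 0 members higher and 0 lower past 2-fold between AtmsKO and WT, 0 and 0 between the Atmp38dKO-labelled array and WT, and 0 lower between the mutant arrays, where all gene names also had fewer (0.237% to 0.493%). There Btg2 was at -0.92 and Gdf15 at -0.95 against WT. With no floor or filter, and with the authors' values, 2 members were lower for AtmsKO against WT and 1 was higher between the mutant arrays, Phlda3 being the addition in both, and 3 were lower between the mutant arrays, Eda2r being the addition there. Detection on both arrays left 0 lower for AtmsKO against WT. At 1.5-fold 4 were higher between AtmsKO and WT, 3 between the Atmp38dKO-labelled array and WT, and 2 higher and 7 lower between the mutant arrays. Of 24 medians 22 kept within 0.075. In place of the median, the mean of the members was -0.10 between the Atmp38dKO-labelled array and WT and -0.069 between the mutant arrays, where the median was positive. Under the mean over a gene's probes that median was -0.01. Scaling moved no median over all gene names by more than 0.1. Dim members (Dram1, Eda2r, Phlda3 and Zmat3) rest on few intensity units, and the lowest signal well above background was 5.33, 6.12 and 4.97.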
